A study of Danio rerio with 6 samples.

Results

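Cadherins and protocadherins are cell surface proteins whose extracellular cadherin repeats bind calcium and, in most of the family, the same repeats on a neighbouring cell. The genes described here are the rows of a zebrafish endothelial RNA-seq table whose symbol starts with cdh and a digit or with pcdh and whose mean over the 6 libraries was at least 5. The table held 31701 genes, 94 of them had such a symbol, and 89 reached the mean. The members just inside the threshold were cdh24a, cdh18a and cdh28, with means of 5.17, 5.67 and 5.83. The 5 rows below it were cdh16 with a mean of 4.83, cdh29 with 3.0, pcdh2aa1 with 2.33, cdh31 with 1.67, and pcdh2ab3, which was listed at 0 in every library.

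Classical cadherins hold neighbouring cells together at adherens junctions and bind β-catenin and p120-catenin with their cytoplasmic tail. VE-cadherin, the product of cdh5, is the classical cadherin of endothelial junctions, and its loss opens the contacts of growing vessels. Clustered protocadherins are encoded in tandem arrays in which each variable exon has its own promoter and is spliced to constant exons shared by an array. Neurons are known for choosing among these promoters and thereby carrying different surface combinations. Non-clustered protocadherins, among them pcdh12, pcdh17 and pcdh19, are single genes with weaker adhesion and long cytoplasmic tails.

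The study compared 3 groups of embryos at 48 hpf (hours post fertilization), with 2 libraries each. All carried Tg(kdrl:EGFP)s843, which labels endothelial cells, in the strain AB, and the RNA came from fluorescence-sorted cells. Mutants carried the hhex s722 allele, which lacks 3 amino acids of the homeodomain of this transcription factor and leaves its RNA in place. They were told from their siblings by the absence of parachordal lymphangioblasts, the precursors of lymphatic vessels in the trunk, so that a sibling could be hhex+/+ or hhex+/-. Overexpressing embryos carried Tg(fli1a:tdTomato-2A-hhex)bns136, in which the fli1a promoter drives hhex in endothelial cells. Their cells were sorted for EGFP and tdTomato together, and those of siblings and mutants for EGFP alone, so the effect of the transgene and that of the narrower gate cannot be told apart. The sources do not say whether the 2 libraries of a group came from separate clutches, and p-values therefore measure the spread between these libraries. The main fit pooled the spread of all 3 groups, so SEs and p-values of a comparison also take in the group outside it. Over 11850 genes the median absolute log2 difference between replicates was 0.432 in mutants, 0.283 in siblings and 0.245 in overexpression.

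Values are numbers of reads per gene divided by a size factor per library and rounded. They are not divided by transcript length, and levels of different genes are therefore not ranked here. The values summed to between 19133058 and 23381023 per library. The hhex row, listed under the clone name CABZ01079847.1, read 204 and 279 in sibling libraries, 613 and 1157 in mutant libraries and 764 and 925 with overexpression. The 10 endothelial markers were present in every library, and their sum was 15688 and 26127 for siblings, 11604 and 32249 for mutants and 37097 and 32124 for overexpression. Replicate 1 was thus the library with the smaller endothelial sum in siblings and mutants. Markers of neurons, epithelium and muscle were also read in every group, and fewer cells of a type cannot be told apart from less RNA per cell.

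The 89 members fell into 6 classes by symbol and position. Most had low values, with a mean under 50 in 54 members and of at least 200 in 9, and cdh10a, cdh12a, cdh15, cdh24a and cdh27 were listed at 0 in 1 library each. The symbols cdh23, pcdh11, pcdh1a6 and pcdh2ab8 each stood on 2 rows. There were 4 type I classical cadherins, 10 type II classical cadherins, 9 other cadherins, 18 non-clustered protocadherins and 48 clustered protocadherins. Of the clustered genes 23 lay in the pcdh1 region, chr10:21602224-21862679 on the forward strand (GRCz10), and 25 in the pcdh2 region, chr14:1976550-2451498 on the reverse strand. Within each array the gene models shared one end. The same 3′ end, position 21862676, was given for 13 of the 19 genes named pcdh1g, and 10 of the 12 genes named pcdh2g ended at position 1976663. All 23 genes of the pcdh1 region and 24 of the 25 genes of the pcdh2 region overlapped another member on the same strand. The authors left out reads that fell on several genes, so the value of a clustered gene rests on the bases that it alone covers.

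**Figure D1:**
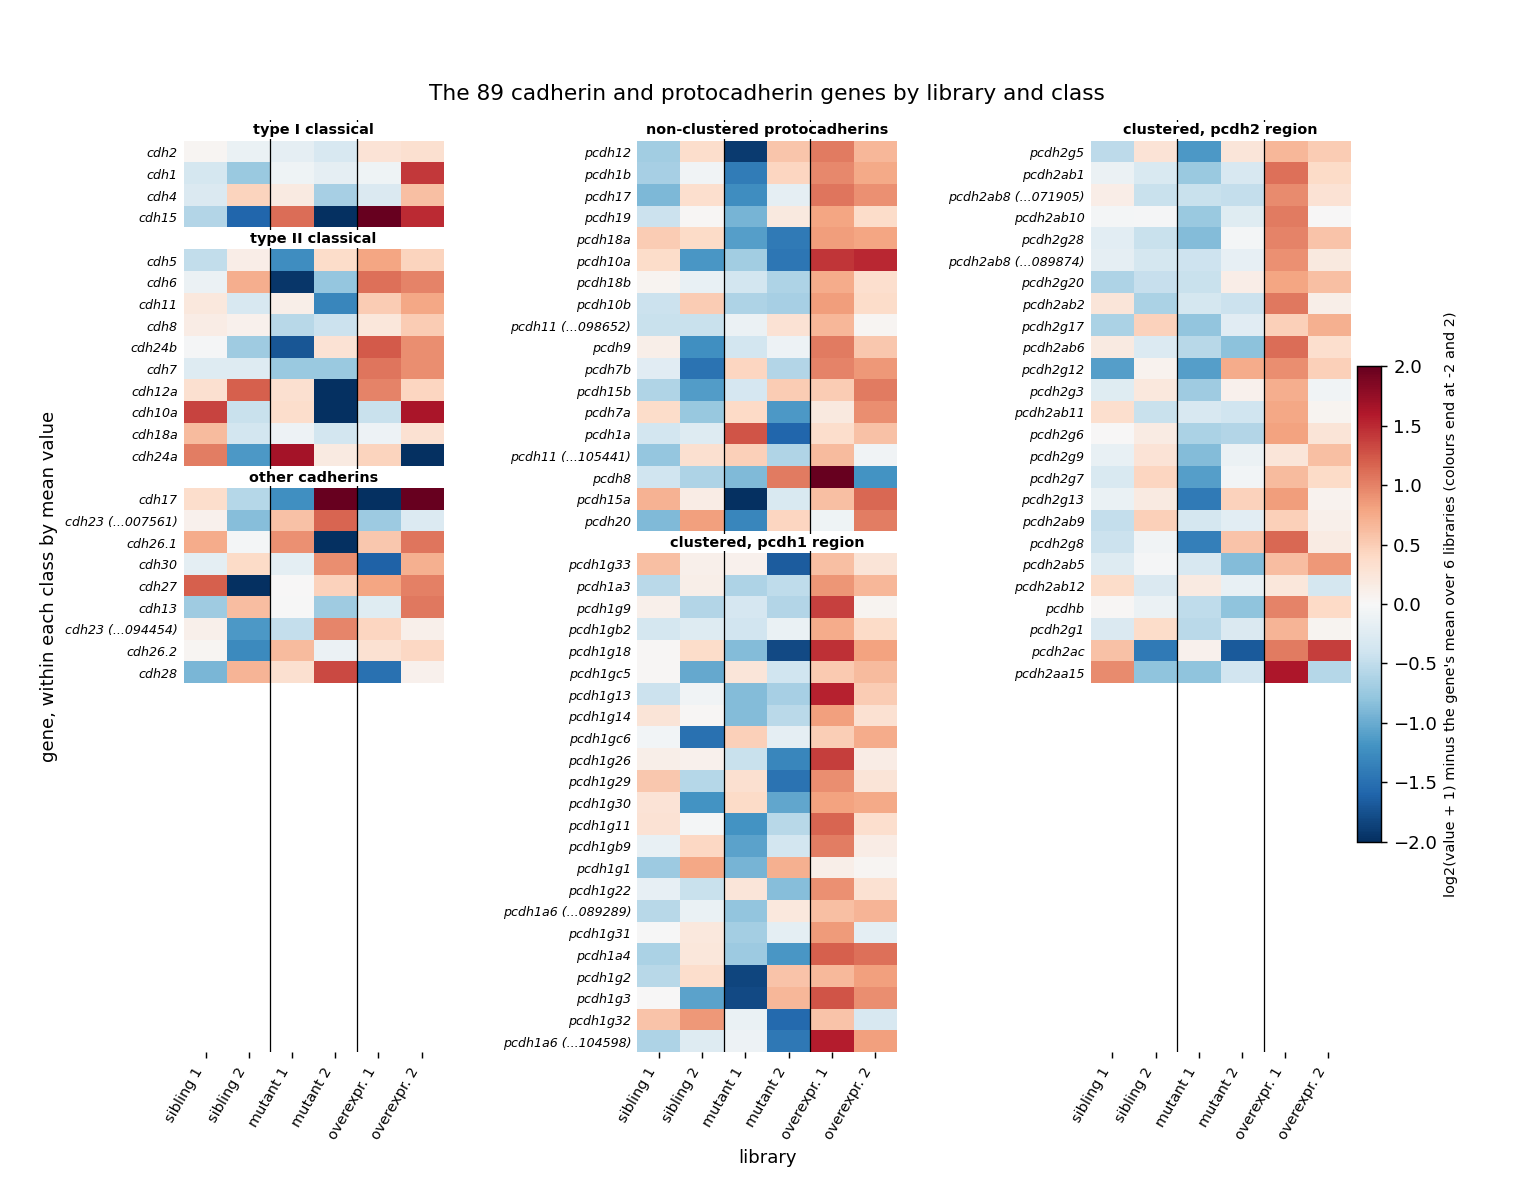
Each row is 1 of the 89 members and each column 1 library, grouped by class. Colour gives log2(value + 1) minus the mean of that gene over the 6 libraries, red above and blue below. Both overexpression columns are mostly red in the protocadherin classes, and mutant columns are mostly blue in the clustered classes. The red columns depend on the scaling, since the median of the members between overexpression and siblings was 0.76 with the deposited values and -0.14 after rescaling to endothelial markers.

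The first comparison set overexpression against siblings. In 53 of the 89 members both overexpression libraries lay above both sibling libraries, and in 0 members both lay below. The 53 include cdh15, which reached the mean of 5 only through the overexpression libraries. Over all 20900 genes tested, 26.9% were higher without overlap and 27.0% lower without overlap, against 59.6% and 0.0% of the members. The median log2 fold change on the log2(value + 1) scale was 0.76 for the members and 0.02 for all genes, and 80 of the 89 members had a fold change above 0. No member passed an adjusted p of 0.05 in limma, as 0.0% of all genes did. At an unadjusted p under 0.05 limma gave 15 members, all of them higher, where 15.0% of all genes reached that level. The smallest adjusted p of a member was 0.229 (limma), that of pcdh2g20. With only the 4 libraries of these groups in the fit, limma passed 841 genes, or 4.02%, and 1 member, pcdh1b, or 1.12%.

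The direction of this family shift depended on what the libraries were scaled to. When each library was rescaled to its endothelial markers, the all-gene median in this comparison became -0.88 and that of the members -0.14. This rescaling moves every gene by the same amount, so it changes signs and cannot change the distance between the medians, 0.74. On that scale 7 members were higher without overlap and 19 lower, against 3.96% and 62.1% of all genes. Summed neural markers were also higher in overexpression, at 6116 and 5353 against 3555 and 3595 in siblings, and 5 of the 10 tested were higher without overlap. The largest part of each neural sum was nova2, at 3580 and 2966 against 1794 and 2314. Summed epithelial markers were 5683 and 6730 against 4664 and 2176. Other lists were lower on the deposited scaling. All 9 tested muscle markers were lower without overlap, with a median log2 fold change of -1.33. Erythroid and myeloid markers had medians of -0.87 and -1.04, and of the 8 myeloid markers 2 were higher and 2 lower without overlap. Neural crest and pronephric markers had medians above 0, at 0.79 and 0.57. The part of all these cells in the members' values was not tested.

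The second comparison set hhex mutants against siblings. Here 24 members were lower without overlap and 5 higher, or 27.0% and 5.62%, where 13.4% and 13.3% of all genes were. The median of the members was -0.32 against -0.01 for all genes. No member passed an adjusted p of 0.05 in limma, as with 0.0% of all genes, and all adjusted p-values of the members were 1.0. At an unadjusted p under 0.05 there were 4 members in limma, 1 higher and 3 lower, where 3.4% of all genes reached it. The counts moved with single libraries, since groups overlap less when 1 of them is a single library. Without sibling replicate 1, sibling replicate 2, mutant replicate 1 and mutant replicate 2 in turn, 38, 38, 38 and 49 members were lower without overlap, where 27.6% to 35.8% of all genes were. The counts of members higher were 17, 8, 24 and 18, where 26.8% to 34.5% of all genes were. With rescaling to endothelial markers 8 members were lower and 4 higher, where 5.13% and 5.89% of all genes were.

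Markers of some other cell types were also lower in mutants. Those of pronephric, erythroid and myeloid cells instead had medians above 0, at 0.697, 0.255 and 0.073. Of 9 tested muscle markers 8 were lower than in siblings without overlap, with sums of 7204 and 4913 against 23449 and 15605 and a median log2 fold change of -1.67, and 7 had an unadjusted p under 0.05 in limma. Neural markers had a median of -0.59 and sums of 2689 and 2777 against 3555 and 3595, with 2 of 10 lower without overlap. The largest part of each neural sum was nova2, whose groups overlapped, at 1160 and 1864 against 1794 and 2314. It was higher in replicate 2 of both groups. The list's median log2 ratio of replicate 2 to replicate 1 was -1.39 in mutants and -0.61 in siblings. The sums therefore do not stand for the list. Epithelial markers had a median of -0.40, and their groups overlapped for all 10. The part of these cells in the members' values was not tested.

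The third comparison set overexpression against mutants, which share these libraries with the other comparisons. In 59 members both overexpression libraries lay above both mutant libraries, and cdh28 and the cdh23 row ENSDARG00000007561 were the 2 members lower without overlap. Without the mutant libraries the means of cdh28 and cdh24a are under 5, so that both are members only through that group. Likewise cdh15, counted among the 59, is a member only through the overexpression libraries. All genes gave 24.1% higher and 24.6% lower, against 66.3% and 2.25% of the members. The median was 1.03 for the members and 0.02 for all genes. No member passed an adjusted p of 0.05 in limma, as with 0.0% of all genes. At an unadjusted p under 0.05 there were 36 members, 35 higher and 1 lower, where 17.6% of all genes reached it. Without mutant replicate 1 the members' median was 0.848 and that of all genes -0.019. Without mutant replicate 2 they were 1.059 and -0.004. After rescaling to endothelial markers the members' median was 0.05 and that of all genes -0.96, with 11 members higher and 6 lower without overlap where 3.72% and 48.0% of all genes were. Markers of other cell types differed too. Medians were 1.72 for epithelium (6 of 10 at an unadjusted p under 0.05 in limma, all higher) and 1.03 for neurons (5 of 10, all higher). They were -1.004 for erythroid cells and -1.77 for myeloid cells. The myeloid list was split, with 2 of 8 markers higher and 2 lower without overlap, and lyz read 41 and 2948 in the overexpression libraries. The part of these cells in the members' values was not tested.

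**Figure D2:**
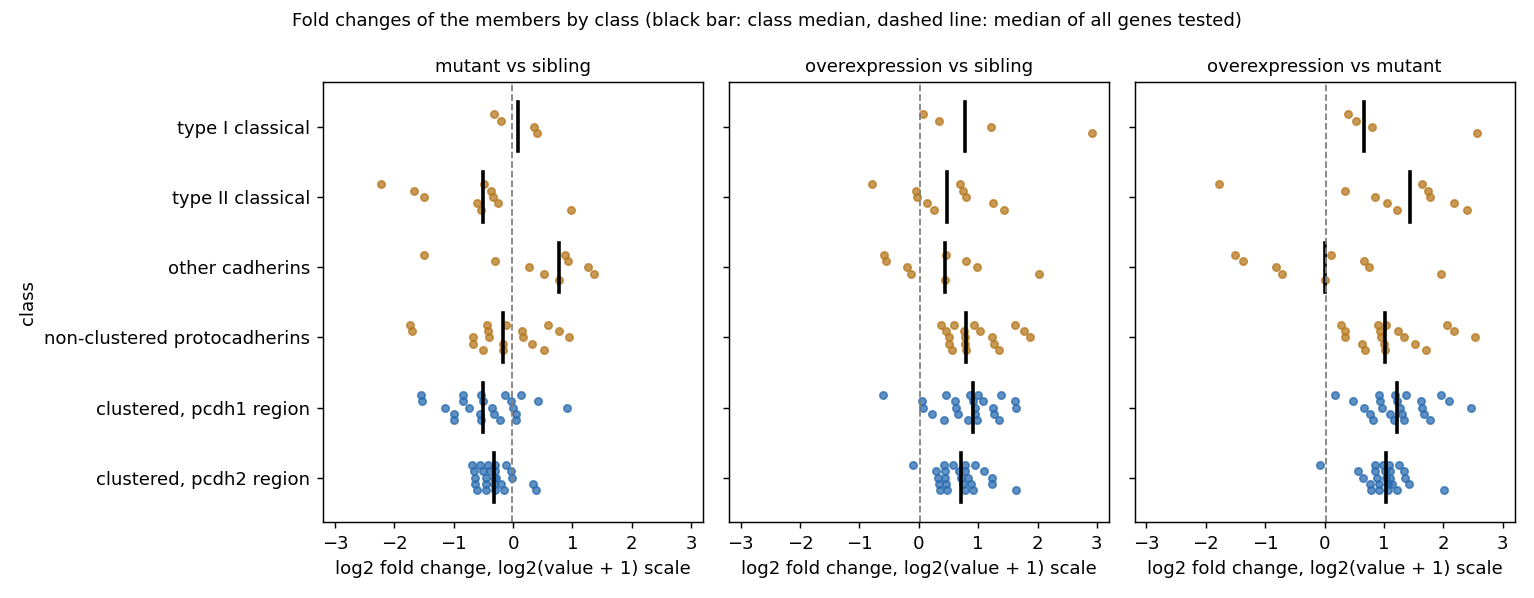
Each point is the log2 fold change of 1 member on the log2(value + 1) scale, in rows by class, with 1 panel for each comparison. Black bars mark class medians and the dashed line the median of all genes tested. In both panels with overexpression the protocadherin classes lie to the right of the dashed line, with medians from 0.71 to 1.22 on the deposited scaling. With rescaling to endothelial markers the family median in overexpression against siblings was -0.14.

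**Figure D3:**
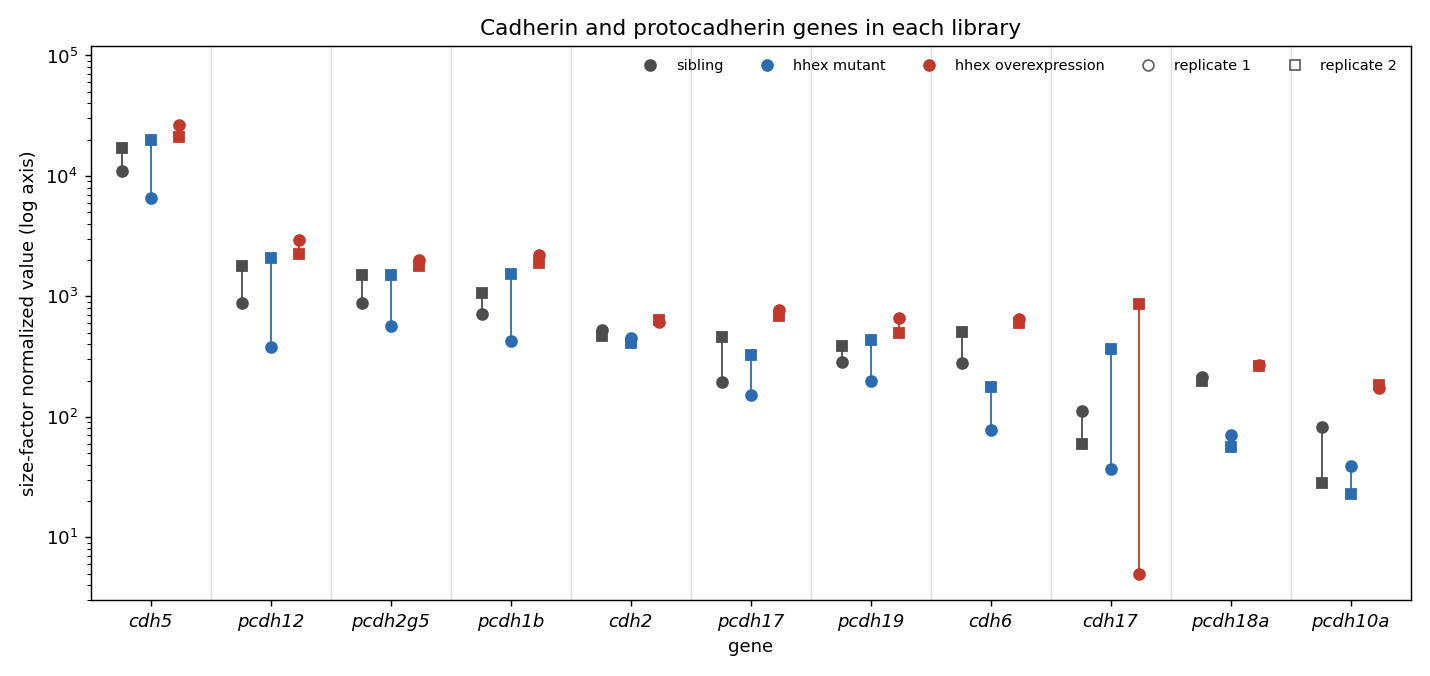
Deposited values of 11 members in each library on a log axis, with circles for replicate 1, squares for replicate 2 and a line joining the 2 libraries of a group. The 2 mutant libraries of pcdh18a and of cdh6 lie below both sibling libraries, while for cdh5 and pcdh12 the mutant libraries span the sibling values. Heights of different genes are not comparable, because values are not divided by length.

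The 4 type I classical cadherins differed in their patterns. For cdh2, N-cadherin, which joins neurons and also mesenchymal and endothelial cells, the values were 525 and 467 among siblings, 454 and 412 among mutants and 616 and 638 under overexpression. No groups overlapped, with overexpression highest and mutants lowest, and the replicates of a group were close. The log2 fold change was 0.34 between overexpression and siblings (SE 0.21, adjusted p = 0.451 from limma) and 0.54 between overexpression and mutants (SE 0.21, adjusted p = 0.256). Both signs turned after rescaling to endothelial markers, to -0.57 and -0.45.

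Of the other type I genes, cdh1 encodes E-cadherin, the classical cadherin of epithelium. It read 88 and 67 in sibling libraries, 106 and 99 in mutant libraries and 106 and 302 with overexpression. Mutants were higher than siblings without overlap, with a log2 fold change of 0.41 (SE 0.48, adjusted p = 1.0 from limma), and overexpression replicate 2 stood far above the other libraries. That library also had the highest sum of epithelial markers, 6730, of which krt4 made up 4080. It had 377 for epcam, an epithelial adhesion molecule, against 58 to 159 elsewhere. This gene was picked from 10 epithelial markers, of which krt5, krt17, cyt1 and icn were highest in other libraries. The part of these cells in cdh1 was not tested. For cdh4, R-cadherin, the values were 25 and 42, 35 and 19, and 25 and 47 in the same order of groups, and all 3 groups overlapped. For cdh15, M-cadherin of muscle, the values were 3 and 1, 12 and 0, and 26 and 16. Without the overexpression libraries the mean of cdh15 is under 5, so that it is a member only through its highest group. Summed muscle markers were 5024 and 11868 in overexpression against 23449 and 15605 in siblings, and their part in cdh15 was not tested.

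Among the type II classical cadherins, cdh5 (ENSDARG00000075549, chr7:44106370-44180006, forward strand) read 11023 and 16894 for siblings, 6545 and 19989 for mutants and 26660 and 20961 for overexpression. Both overexpression libraries were the highest, and the mutant libraries lay outside the sibling range on either side. The log2 fold change was 0.79 between overexpression and siblings (SE 0.47, adjusted p = 0.434 from limma) and 1.05 between overexpression and mutants (SE 0.47, adjusted p = 0.294). Between mutants and siblings it was -0.26 (SE 0.47), and it ranged from -1.06 to 0.55 when single libraries were left out. With only the 4 libraries of overexpression and siblings in the fit, the adjusted p of cdh5 from limma was 0.076. The authors, with DESeq2, reported cdh5 as different between overexpression and siblings, and not in the comparisons with mutants. Their test was not repeated here, since the values are not raw counts. The order of the 6 libraries by cdh5 was that of the summed endothelial markers, with mutant replicate 1 lowest and overexpression replicate 1 highest, except that mutant replicate 2 and overexpression replicate 2 changed places. After rescaling to those markers the fold changes with overexpression were -0.11 and 0.07. A gene on the same strand, bean1, overlaps cdh5.

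The other abundant type II gene, cdh6 (ENSDARG00000014522, chr2:28393410-28542893, reverse strand), was lower in both mutant libraries than in both sibling libraries. Cadherin-6 is a type II cadherin known in mammals from the developing kidney. Its values were 280 and 502 among siblings, 78 and 177 among mutants and 647 and 605 under overexpression. The 3 groups did not overlap. The log2 fold change between mutants and siblings was -1.67 (SE 0.42, unadjusted p = 0.0043, adjusted p = 1.0 from limma), and -1.59 after rescaling to endothelial markers. Between overexpression and mutants it was 2.402 (SE 0.42, adjusted p = 0.116 from limma), and 1.42 after rescaling. Between overexpression and siblings it was 0.74 (SE 0.42, adjusted p = 0.423 from limma), and -0.17 after rescaling.

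The remaining 8 type II genes had means of at most 120.8. For cdh11, a cadherin of mesenchyme, the values were 128 and 88 in sibling libraries, 120 and 44 in mutant libraries and 157 and 188 with overexpression, which was the highest group. Of the 10 genes of this class 3, or 30.0%, were lower in mutants than in siblings without overlap, where 13.4% of all genes were. They were cdh6, cdh7 and cdh8. The log2 fold change there was -0.49 for cdh7 (SE 0.56) and -0.61 for cdh8 (SE 0.38). The values of cdh7 were 13 and 13, 9 and 9, and 34 and 31, and those of cdh8 were 54 and 52, 33 and 36, and 57 and 70. Both of these cadherins, known from neurons, thus had the order of cdh6 on the deposited scaling, with mutants lowest and overexpression highest. Overexpression exceeded siblings by 1.26 for cdh7 (SE 0.56) and 0.25 for cdh8 (SE 0.38). After rescaling to endothelial markers these were 0.35 and -0.66. Both genes are named here after their values were seen.

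Among the 9 other cadherins the groups mostly overlapped, and 8 of them overlapped between overexpression and siblings. Cadherin-17 is a kidney cadherin in zebrafish, where cdh17 marks the pronephros. It read 112 and 59 for siblings, 37 and 363 for mutants and 5 and 862 for overexpression. The replicates of mutants and of overexpression thus differed more than any groups, and single libraries decided the sign of each comparison. Its log2 fold changes of -0.19, 0.51 and -0.71 in the 3 comparisons, in the order above, each had an SE of 2.27. The pronephric sodium pump gene atp1a1a.4 read 198, 70, 88, 503, 41 and 745 in the same 6 libraries. It was picked from 8 pronephric markers, which did not move together. Their median log2 ratio of replicate 2 to replicate 1 was -0.57 in mutants and -0.12 in overexpression, where cdh17 had 3.26 and 7.17. The part of pronephric cells in the cdh17 values was not tested.

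Cadherin-23 and protocadherin-15 form the tip links of sensory hair cells. The symbol cdh23 stood on 2 rows. The row ENSDARG00000007561 read 43 and 22 among siblings, 61 and 92 among mutants and 24 and 33 under overexpression, so that mutants were higher than both other groups. Its log2 fold change was 1.26 between mutants and siblings (SE 0.50, unadjusted p = 0.0357, adjusted p = 1.0 from limma) and -1.38 between overexpression and mutants (SE 0.50, adjusted p = 0.232). The second row, ENSDARG00000094454, read 11 and 4, 7 and 21, and 14 and 11, and its groups overlapped. Genes named zgc:153073 and si:ch211-106f21.1 overlap the first row on the other strand. For cdh13, T-cadherin, which is anchored by a lipid and lacks a cytoplasmic tail, the values were 7 and 19, 12 and 7, and 10 and 26, and all groups overlapped.

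All 18 non-clustered protocadherins had a fold change above 0 between overexpression and siblings with the deposited scaling (8 of 18 after rescaling to endothelial markers), and 12 of them were higher without overlap. Between overexpression and mutants 11 were higher without overlap and 0 lower. In mutants against siblings 4 were lower without overlap, or 22.2%, where 13.4% of all genes were. There 2 were higher, or 11.1%, where 13.3% of all genes were, and 7 of the 18 had a fold change above 0. For the counts with overexpression, 26.9% of all genes were higher against siblings and 24.1% against mutants.

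Protocadherin-12, in mammals also called VE-cadherin-2, is an endothelial protocadherin. Its gene pcdh12 (ENSDARG00000076594, chr14:16003187-16022678, reverse strand) read 876 and 1804 in sibling libraries, 378 and 2093 in mutant libraries and 2911 and 2258 with overexpression. Overexpression was the highest group, and mutant replicate 1 was the lowest library. The log2 fold change was 1.03 between overexpression and siblings (SE 0.70, adjusted p = 0.490 from limma) and 1.53 between overexpression and mutants (SE 0.70, adjusted p = 0.305). After rescaling to endothelial markers these were 0.12 and 0.55, the first was 0.51 when sibling replicate 1 was left out and 1.55 when sibling replicate 2 was, and the second 0.29 and 2.76 when mutant replicate 1 or 2 was left out. The change between mutants and siblings was -0.50 (SE 0.70) and ranged from -1.73 to 0.73 without single libraries.

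A like order was seen for pcdh1b and pcdh17. For pcdh1b the values were 712 and 1069 for siblings, 425 and 1524 for mutants and 2191 and 1903 for overexpression. Its log2 fold change between overexpression and siblings was 1.23 (SE 0.52, adjusted p = 0.329 from limma). With only the 4 libraries of these 2 groups in the fit pcdh1b was the 1 member that passed, at the same fold change. That is 1.12% of the members, where 4.02% of all genes passed. The fold change was 0.32 once rescaled to endothelial markers. Between overexpression and mutants it was 1.34 (SE 0.52, adjusted p = 0.254 from limma), 0.42 without mutant replicate 1 and 2.26 without mutant replicate 2, and between mutants and siblings -0.12 (SE 0.52). The δ2 protocadherin pcdh17 read 196 and 459, 153 and 323, and 766 and 688. Overexpression exceeded siblings by 1.27 (SE 0.46, adjusted p = 0.283 from limma) and mutants by 1.70 (SE 0.46, adjusted p = 0.167). After rescaling these were 0.36 and 0.72, and the first was 0.66 when sibling replicate 1 was left out and 1.88 when sibling replicate 2 was. Mutants overlapped siblings, with -0.43 (SE 0.46).

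The δ2 protocadherin pcdh19, studied in zebrafish for its role in the neural tube, read 284 and 387 among siblings, 200 and 436 among mutants and 658 and 494 under overexpression. Its overexpression libraries were the highest, and its log2 fold changes were 0.78 against siblings (SE 0.38, adjusted p = 0.369 from limma) and 0.95 against mutants (SE 0.38, adjusted p = 0.263). Between mutants and siblings it was -0.17 (SE 0.38). After rescaling to endothelial markers both changes with overexpression were below 0, at -0.13 and -0.03. Another gene, si:ch211-237h22.2, overlaps pcdh19 on the other strand, and the strand setting of the counting is not given in the sources used here.

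The smallest unadjusted p of a member between mutants and siblings was that of pcdh18a (ENSDARG00000089805, chr1:12574317-12584322, reverse strand), also a δ2 protocadherin. It read 214 and 198 in sibling libraries, 70 and 56 in mutant libraries and 269 and 263 with overexpression. The groups did not overlap, and the replicates of a group lay closer to each other than to any other group. The log2 fold change between mutants and siblings was -1.70 (SE 0.27, unadjusted p = 0.000224 and adjusted p = 1.0 from limma), between -1.86 and -1.54 without single libraries and -1.63 after rescaling to endothelial markers. Between overexpression and mutants it was 2.07 (SE 0.27), and its adjusted p of 0.0996 from limma was the smallest of any member in any comparison. Overexpression exceeded siblings by 0.37 (SE 0.27, adjusted p = 0.515 from limma), a difference that was -0.54 after rescaling. Its paralog pcdh18b read 58 and 50, 43 and 36, and 94 and 71, in the same order of groups with a smaller distance between mutants and siblings.

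Among members with a mean of at least 20, the largest difference between overexpression and siblings without overlap was that of pcdh10a, a δ2 protocadherin of the nervous system. It read 83 and 28 for siblings, 39 and 23 for mutants and 175 and 184 for overexpression. Both overexpression libraries were above every other library, and the log2 fold change was 1.87 against siblings (SE 0.54, adjusted p = 0.241 from limma) and 2.54 against mutants (SE 0.54, adjusted p = 0.138). These were 0.96 and 1.56 after rescaling, and the first ranged up to 2.637 with sibling replicate 1 left out and down to 1.103 with sibling replicate 2 left out. The neural markers elavl3 and stmn1b read 599 and 428 and 295 and 297 in overexpression, where siblings read 331 and 156 and 290 and 120. Of the 10 tested neural markers 5 were higher without overlap, where 26.9% of all genes were, and 5 overlapped. After rescaling 1 of the 10 had a fold change above 0. The part of neural cells in the pcdh10a values was not tested. The paralog pcdh10b read 39 and 75, 34 and 33, and 95 and 68, so that overexpression and siblings overlapped.

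The next largest differences of this class were those of pcdh7b and pcdh15b. For pcdh7b the values were 30 and 12 among siblings, 48 and 23 among mutants and 71 and 65 under overexpression, with a log2 fold change of 1.78 (SE 0.58, adjusted p = 0.256 from limma) between overexpression and siblings. For pcdh15b they were 19 and 13, 23 and 42, and 42 and 61, with 1.63 (SE 0.53, adjusted p = 0.256 from limma). After rescaling these were 0.87 and 0.72. Mutants were above siblings for pcdh15b without overlap, with 0.94 (SE 0.53), whereas its paralog pcdh15a read 15 and 10, 1 and 7, and 14 and 21, with mutants below siblings. The 2 paralogs thus lay on opposite sides of the siblings in mutants, at means of 33.3 and 11.3. The symbol pcdh11 stood on 2 rows, and the row ENSDARG00000098652 read 39 and 39 in sibling libraries, 49 and 65 in mutant libraries and 85 and 55 with overexpression, so that mutants exceeded siblings by 0.52 (SE 0.40, adjusted p = 1.0 from limma).

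The remaining protocadherins of this class that are known as markers had low values. Values of pcdh7a were 36 and 16 for siblings, 37 and 12 for mutants and 32 and 54 for overexpression, with overlap throughout. For pcdh1a, the paralog of pcdh1b, they were 13 and 14, 42 and 5, and 22 and 26. For pcdh8, which encodes the paraxial protocadherin of the segmenting mesoderm, they were 6 and 5, 4 and 18, and 37 and 3. In pcdh8 a single library, overexpression replicate 1, held most of the reads.

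On the deposited scaling most of the 48 clustered protocadherins were higher in overexpression, a direction that after rescaling to endothelial markers was left against siblings in 12 of 23 and 6 of 25 genes of the 2 regions. In overexpression against siblings 16 of the 23 genes of the pcdh1 region and 15 of the 25 genes of the pcdh2 region were higher without overlap, and 0 were lower, where 26.9% and 27.0% of all genes were. Against mutants the counts were 19 of 23 and 19 of 25, again with 0 lower, where 24.1% and 24.6% of all genes were. The class medians were 0.92 and 0.71 against siblings and 1.22 and 1.03 against mutants, and after rescaling 0.01 and -0.20 against siblings and 0.24 and 0.05 against mutants. Single genes had low values, with means of 12.5 to 84.0 in the pcdh1 region and of 12.2 to 112.2 in the pcdh2 region without pcdh2g5.

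Summed over the 23 genes of the pcdh1 region the libraries read 962 and 907 among siblings, 759 and 680 among mutants and 1891 and 1336 under overexpression. The 24 genes of the pcdh2 region without pcdh2g5 summed to 1131 and 1118, 794 and 1082, and 2268 and 1548. In both sums mutants lay below siblings and overexpression above, without overlap. With pcdh2g5 included the pcdh2 region summed to 2006 and 2635, 1363 and 2574, and 4262 and 3333, so that mutants overlapped siblings. In each of these sums overexpression replicate 1 was the highest library. That library was the higher of the pair for 40 of the 48 clustered genes. In mutants 10 genes of the pcdh1 region and 6 of the pcdh2 region were lower than in siblings without overlap, and 0 and 1 higher, where 13.4% and 13.3% of all genes were.

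Replicates 1 and 2 were compared for each group of clustered genes with a shared name. All 11 genes named pcdh2g other than pcdh2g5 were higher in mutant replicate 2 than in mutant replicate 1, with a median log2 ratio of 0.81, and 10 of the 11 in sibling replicate 2. Of the 19 genes named pcdh1g this held for 9 in mutants and 8 in siblings, with medians of -0.25 and -0.23. Of the 12 genes named pcdh2a it held for 5 in mutants and 3 in siblings, with medians of -0.06 and -0.51, and of the 4 genes named pcdh1a for 2 and 4. In the same libraries the median log2 ratio of replicate 2 to replicate 1 was 1.63 in mutants and 0.90 in siblings for endothelial markers, and -1.39 and -0.61 for neural markers. How far cell composition bears on this was not tested.

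Among the genes named pcdh2g, pcdh2g5 stood apart by a gene model that runs past the shared 3′ end. The row of pcdh2g5 (ENSDARG00000098788, which a reference table of identifiers calls pcdh2g28, the symbol of another row here) read 875 and 1517 in sibling libraries, 569 and 1492 in mutant libraries and 1994 and 1785 with overexpression, a mean of 1372 where the other 11 pcdh2g genes had means of 23.2 to 100.7. Its annotation starts at position 1976550 of chromosome 14, 113 bases beyond the 3′ end shared by most pcdh2g genes, so that it alone among them covers this stretch. Reads in that stretch could be counted for pcdh2g5 alone, whichever variable exon their transcript began with, and its value cannot be read as the level of 1 variable exon. The log2 fold change was 0.71 between overexpression and siblings (SE 0.44, adjusted p = 0.455 from limma), 1.03 between overexpression and mutants (SE 0.44, adjusted p = 0.282) and -0.32 between mutants and siblings (SE 0.44). After rescaling to endothelial markers the first of these was -0.20. Among the genes named pcdh2a, the model of pcdh2ab9 likewise runs past their shared position 2204772, to 2200811, and its mean was 34.83.

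Single clustered genes with the largest differences came mostly from the pcdh1 region. For pcdh1g18 the values were 49 and 62 for siblings, 26 and 13 for mutants and 134 and 85 for overexpression, 3 groups without overlap. Its log2 fold change was -1.53 between mutants and siblings (SE 0.48, adjusted p = 1.0 from limma) and 2.47 between overexpression and mutants (SE 0.48, adjusted p = 0.133). For pcdh1a4 the values were 15 and 28, 14 and 10, and 56 and 52, with 2.097 (SE 0.54, adjusted p = 0.162 from limma) between overexpression and mutants.

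Among clustered genes with a mean of at least 20, pcdh1g33 and pcdh1g11 came after pcdh1g18 as furthest below siblings in mutants without overlap. The gene pcdh1g32, with a mean of 19.0, was further below, at 15 and 5 against 25 and 31. For pcdh1g33 the values were 115 and 81, 80 and 23, and 115 and 90 in the order of groups above. Its mutants differed from siblings by -1.15 (SE 0.56), and by -0.27 when mutant replicate 2 was left out. For pcdh1g11 the values were 49 and 39, 17 and 27, and 91 and 51, with -0.99 (SE 0.48) between mutants and siblings. Mutants instead lay above siblings for pcdh2g20, which read 54 and 60, 61 and 91, and 145 and 126, with 0.38 (SE 0.34) between mutants and siblings. Its lower mutant value, 61, was next to its higher sibling value, 60. The adjusted p of pcdh1g33, pcdh1g11 and pcdh2g20 between mutants and siblings was 1.0 in limma. Against siblings in overexpression, pcdh1g3 read 49 and 39 against 20 and 9 and pcdh2ac 32 and 41 against 23 and 5, with log2 fold changes of 1.63 (SE 0.85) and 1.63 (SE 0.88) and adjusted p-values of 0.389 and 0.399 from limma.

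**Figure D4:**
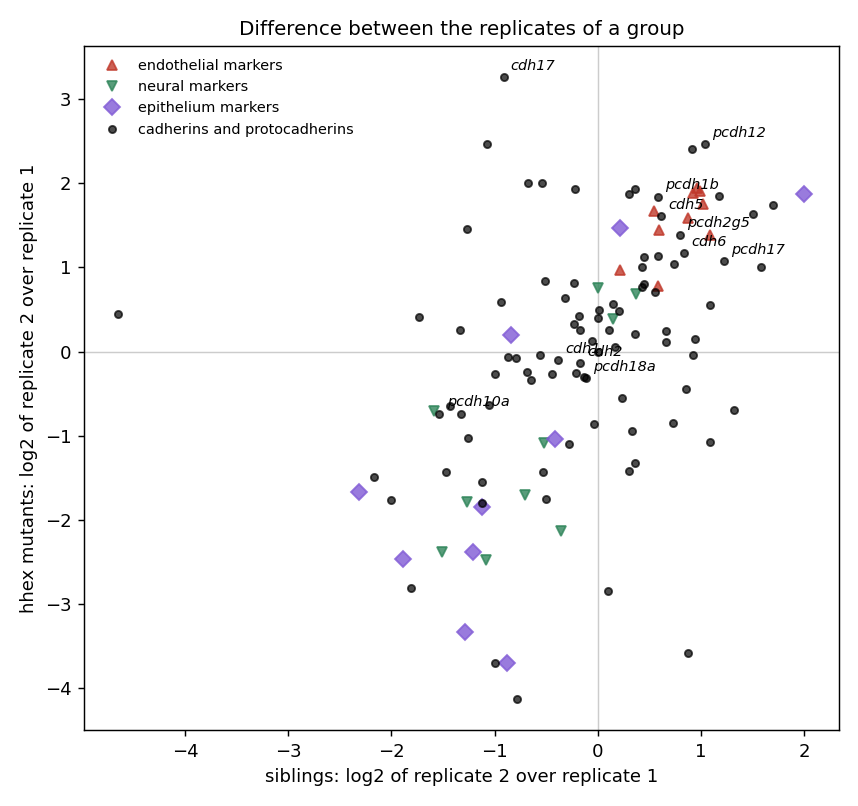
Log2 ratio of replicate 2 to replicate 1 in siblings (horizontal) and in hhex mutants (vertical), with black points for the 89 members and coloured points for markers of endothelium, neurons and epithelium. The ratio uses log2(value + 1). The members spread over the whole range of the markers, with cdh5, pcdh12, pcdh1b, pcdh17, cdh6 and pcdh2g5 beside the endothelial markers, pcdh10a among the neural ones, and cdh2 and pcdh18a near 0.

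The members differed from each other in how they followed the difference between replicates. With a log2 difference over 0.5 as the limit, chosen after the values were seen, 15 members (16.9%, against 10.3% of all genes) were higher in replicate 2 of both siblings and mutants. These were cdh5, cdh6, cdh28, cdh30, pcdh12, pcdh17, pcdh1b, pcdh20 and 7 clustered genes, pcdh2g5 among them. A further 14 members (15.7%, against 9.91%) were lower in replicate 2 of both groups. They included pcdh10a, pcdh7a, pcdh7b, cdh11, cdh15 and 5 clustered genes. In overexpression against siblings 9 of the first set and 9 of the second were higher without overlap, where 59.6% of all members and 26.9% of all genes were. The limit and the overlap both use the sibling values, so these shares cannot be read as a result about the 2 sets.

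The partners of cadherins inside the cell were described from lists, whose shares without overlap stand against 26.9% of all genes higher and 27.0% lower in overexpression against siblings, and 13.3% and 13.4% in mutants against siblings. Of 12 tested catenins, which link cadherins to actin or stabilise them, 11 were higher in overexpression than in siblings without overlap and 0 lower, with a median log2 fold change of 0.78 that was -0.13 after rescaling to endothelial markers. None passed in limma, and 3 had an unadjusted p under 0.05. The largest difference was that of arvcfb, a p120-catenin relative, which read 356 and 513 among siblings, 304 and 1051 among mutants and 1260 and 1057 under overexpression. The β-catenin gene ctnnb1 read 1441 and 1531, 1328 and 1659, and 2032 and 1998, with overexpression highest and mutants spanning the siblings. Between mutants and siblings 1 catenin was higher and 0 lower without overlap. The largest difference there was that of ctnnd2b, a neural δ-catenin, which read 109 and 43, 74 and 10, and 128 and 98.

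Of 18 linkers and regulators of cadherins 9 were higher and 4 (22.2%) lower in overexpression than in siblings without overlap, with a median of 0.24 that was -0.67 after rescaling. The largest difference upward was in ptprb, which encodes the VE-cadherin phosphatase VE-PTP, at 2378 and 3572 in siblings and 8100 and 5088 in overexpression. Mutants gave 1 (5.56%) higher and 2 (11.1%) lower than siblings, both shares below those of all genes.

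Of 10 atypical and seven-pass cadherins, which act in planar cell polarity, 3 were higher and 1 lower in overexpression than in siblings without overlap. The ends of this list were fat3a at 174 and 102 against 221 and 288 and dchs1a, a ligand of Fat cadherins, at 370 and 365 against 231 and 271. Of 7 desmosomal genes 5 were higher and 1 lower, from pkp3b at 344 and 666 against 1154 and 919 to pkp1b at 59 and 35 against 23 and 22. The medians of both lists were below 0 after rescaling, at -0.40 and -0.25, and no gene of them passed in limma in any of the 3 comparisons.

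Of 10 tested cadherin repressors, transcription factors of the Snail, Zeb and Twist families that silence E-cadherin, 5 were higher and 2 lower in overexpression than in siblings without overlap. For snai1b the values were 2 and 7 in sibling libraries, 3 and 5 in mutant libraries and 22 and 7 with overexpression. For zeb2a, at the other end, they were 1092 and 954, 1660 and 1122, and 622 and 638, so that overexpression was the lowest group and mutants the highest. The median of the list was 0.60, and -0.30 after rescaling. None of the 10 passed in limma.

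Between mutants and siblings the counts without overlap were small, with 2 atypical cadherins higher and 2 lower, 0 desmosomal genes higher and 1 lower, and 1 repressor higher and 2 lower. The largest difference downward among the repressors was that of twist1a, at 14 and 12 in siblings and 7 and 1 in mutants, and among the seven-pass cadherins that of celsr3, at 143 and 75 against 74 and 32. Upward it was fat1a among the atypical cadherins, at 1031 and 1280 against 1333 and 2376. The adjusted p of every gene on these lists was 1.0 in limma for mutants against siblings.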

How the data were processed

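RNA of sorted endothelial cells from 6 libraries in 3 groups was analysed, with groups taken from the sample labels. The authors trimmed reads with Reaper, aligned them with STAR (2.4.0a) to GRCz10 and counted reads on exons with featureCounts (1.4.5-p1), leaving out reads on several genes or places. The strand setting of the counting is not given in the sources used here. Each deposited value is a signal for a gene that the authors made by dividing read numbers by DESeq2 (1.62) size factors and rounding. They are not raw counts, so no count model was used.

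Only the 20900 genes whose mean reached 5 entered the fit. log2(value + 1) was fitted with limma (3.58.1, R 4.3.3), all 6 libraries in one fit with trend and robust estimation (7.96 degrees of freedom in total), tested on simulated data. P-values are two-sided and adjusted over all genes by the Benjamini-Hochberg method, with a threshold of 0.05. An exact permutation test of 2 libraries against 2 cannot go below p = 0.333 and was not used. Values sum to between 19133058 and 23381023 per library.

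Named with values were members with a mean of at least 200, up to 5 members furthest up and 5 furthest down per comparison among those without overlap and with a mean of at least 20, and a list of well-known members. Members and lists were chosen with earlier results of these data known. Identifiers of 73 of the 89 members matched a table of gene names. The values of some listed regulators are not reported here. No sequence is shown. The alternatives were the filter on low values, the pseudocount, quantile scaling, rescaling to endothelial markers, a fit of 4 libraries, the replicate block and leaving out each library.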

Additional observations from a re-analysis of the deposited data

How the results depend on the processing

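Counts of genes past the threshold in limma differed from 0 under several alternatives. Between overexpression and siblings they were 4 with no filter, 841 genes and 1 member with only the 4 libraries, 4 with quantile scaling, 75 genes and 0 members after rescaling to endothelial markers, and 0 to 838 genes with 0 to 1 members without single libraries. Between overexpression and mutants they were 10 with no filter, 100 after rescaling, and 0 to 2512 genes with 0 to 15 members without single libraries. Between mutants and siblings they were 0 to 13 without single libraries. The members' median was -0.142 and 0.053 after rescaling in the comparisons of overexpression with siblings and mutants. Without single libraries it was 0.614 to 0.943 and 0.848 to 1.23. The SD of the members' median between replicates was 0.145, which is not the spread of single genes. Between overexpression and siblings the 4-library fit left out the spread of the mutants, and the members' median stayed at 0.764. The causes of these differences were not tested.

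Counts without overlap were added after seeing the data. After rescaling, members higher and lower were 7 and 19 in overexpression against siblings (all genes 3.96% and 62.1%), 4 and 8 in mutants against siblings (5.89% and 5.13%) and 11 and 6 in overexpression against mutants (3.72% and 48.0%). Without single libraries they were 63 to 68 and 3 to 5 (all genes 37.4% to 39.2% and 35.9% to 39.1%), 8 to 24 and 38 to 49 (26.8% to 34.5% and 27.6% to 35.8%), and 69 to 71 and 4 to 5 (34.3% to 39.9% and 33.3% to 39.5%).

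Many signs turned with rescaling. Against siblings in overexpression they included those of cdh2 (-0.567), cdh5 (-0.114), cdh6 (-0.17), pcdh19 (-0.126) and pcdh2g5 (-0.196). They also included pcdh18a (-0.538), pcdh18b (-0.314), cdh11 (-0.217) and cdh8 (-0.657). Against mutants they included cdh2 (-0.445), pcdh19 (-0.033) and cdh1 (-0.18). For cdh17 a pseudocount of 5 gave 0.106 between overexpression and siblings, and single libraries gave ranges of -3.78 to 3.39 there, -1.12 to 2.14 in mutants against siblings and -4.29 to 2.88 in overexpression against mutants. In mutants against siblings the ranges without single libraries were -1.06 to 0.55 for cdh5, -1.73 to 0.73 for pcdh12, -1.04 to 0.18 for pcdh17, -0.73 to 0.39 for pcdh19, -1.04 to 0.80 for pcdh1b and -1.02 to 0.37 for pcdh2g5.

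Replicate numbers are shared between groups without any statement that they pair libraries. Differences between replicates correlated over 11850 genes at 0.487 between siblings and mutants, -0.107 between siblings and overexpression and -0.204 between mutants and overexpression. With a replicate block 0 genes passed in each comparison, and the members' medians were 0.764, -0.317 and 1.03.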

Other observations

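A further 4 rows of the family have symbols in capitals, which the rule does not match, and CDH7 was also below the mean of 5. The values of CDH19 were 4 and 10 in sibling libraries, 5 and 2 in mutant libraries and 35 and 29 with overexpression, so that both overexpression libraries lay above the other 4. For CDH22 they were 6 and 11, 6 and 3, and 10 and 15, and for CDH7 1 and 3, 2 and 1, and 1 and 2. For PCDH20, a row apart from pcdh20, they were 10 and 2, 20 and 2, and 17 and 8, with replicate 1 higher in each group.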
